A study of Mus musculus with 12 samples.

Results

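The enzymes that use the amino acid arginine to make nitric oxide, ornithine and polyamines were followed in dendritic cells and macrophages that grow out of mouse bone marrow under the myeloid growth factor GM-CSF. The 8 genes were Nos2, Gch1, Asl, Ass1, Arg1, Arg2, Odc1 and Sat1, and each was read from a probe set paired with 1 gene symbol, the one with the highest mean where a gene had several. That gave 7 of the 8, out of 19938 genes measured in the same way. Ass1 has no value here, because its 2 probe sets are paired with Gm5424, a transcribed pseudogene, as well.

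Marrow of the tibia and femur of C57B/6 mice was kept in GM-CSF at 20 ng/ml over 6 days. The resulting dendritic cells (labelled GM-DC) and macrophages (GM-MF) were left unstimulated or were given 10 ng/ml lipopolysaccharide (LPS), a bacterial ligand of Toll-like receptor 4, for 4 hours. Each of the 4 groups had 3 Affymetrix Mouse Gene 1.0 arrays, 12 in all. The labels do not say whether replicates were separate mice or cultures, so the p-values reflect nothing beyond the spread among these arrays, which may be technical.

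Arginine stands at a fork in myeloid cells. Inducible nitric oxide synthase, encoded by Nos2, turns it into nitric oxide and citrulline and needs the cofactor tetrahydrobiopterin, whose synthesis starts with GTP cyclohydrolase 1 (Gch1). Argininosuccinate synthase (Ass1) and lyase (Asl) rebuild arginine from citrulline. Arginase 1 (Arg1, cytosolic) and arginase 2 (Arg2, mitochondrial) instead split arginine into urea and ornithine. Ornithine decarboxylase (Odc1) turns ornithine into putrescine, the first polyamine, and spermidine/spermine N1-acetyltransferase (Sat1) starts polyamine breakdown. High Nos2 and high Arg1 are textbook marks of classically and alternatively activated macrophages.

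Levels are log2 values as deposited and are comparable between arrays for 1 gene but not between genes. Means carry the SD over 3 arrays. Differences are on the log2 scale, each followed by its standard error (±) from a limma fit to 3 arrays per group, and a gene was called where its adjusted p was under 0.05 over all 19938 genes. Within groups, correlations between arrays were 0.993 to 0.996 over all genes, which are not independent replicates. Array medians lay between 4.41 and 4.54, so values near or under these medians were not shown to lie above background. The 10 dendritic cell markers examined had an array mean of 9.20 to 9.37 in GM-DC and 6.48 to 7.37 in GM-MF, and the 9 measured macrophage markers of 5.59 to 5.90 in GM-DC and 9.34 to 9.65 in GM-MF. Against its list, the dendritic marker Itgax (CD11c) had a higher mean in GM-MF without LPS (10.88, with GM-DC at 8.68), as had H2-Ab1 (12.03, with GM-DC at 11.80), while Kmo and the macrophage marker Cd163 were under the array medians in every group. Markers of other cells also differed between the cell types: the 5 eosinophil markers averaged 3.60 to 4.00 per array in GM-DC and 4.44 to 4.85 in GM-MF, with Epx and Il5ra under the array medians in all groups Ear6 without LPS at 3.79 in GM-DC but 8.21 in GM-MF, and Prg2 the other way, at 5.04 in GM-DC but 4.13 in GM-MF. The 10 neutrophil markers averaged 5.46 to 5.56 and 5.61 to 5.91, with Ly6g under the array medians in all groups. S100a8 and S100a9 lay far above these medians in every group. Without LPS the GM-MF mean exceeded that of GM-DC for S100a8 (10.55 against 9.61) and S100a9 (10.06 against 9.81). Among the neutrophil markers, Mpo alone had the reverse order (4.17 against 4.89). The 4 endothelial markers averaged 3.21 to 3.47 in GM-DC and 3.76 to 4.18 in GM-MF, with Pecam1, Tek and Emcn under the array medians in all groups. Cdh5 without LPS was at 5.40 in GM-MF and 3.98 in GM-DC. The 6 T and NK cell markers averaged 4.11 to 4.32 in GM-DC and 3.61 to 4.02 in GM-MF, but did not move together. Without LPS Cd8a (7.49 in GM-DC and 4.40 in GM-MF) and Cd3g (4.11 and 3.69) were higher in GM-DC. Cd4 was similar (3.61 and 3.58), and Cd3e (4.86 and 4.98), Ncr1 (2.82 and 2.85) and Klrb1c (2.53 and 2.98) were lower in GM-DC. The part of such cells in the results was not tested, and in bulk RNA fewer cells of a type and less RNA per cell cannot be told apart.

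Nitric oxide synthase, its cofactor enzyme and arginase 1 were all lower in the dendritic cells than in the macrophages, with and without LPS. Before LPS, 6 of the 7 genes were called between the cell types, against 34.2% of all genes. Arg1, Gch1 and Nos2 were lower in GM-DC (16.2% of all genes were), and Odc1, Asl and Arg2 were higher (18% of all genes were). With LPS 6 of 7 were called, against 36.3% of all genes: Nos2, Arg1, Sat1 and Gch1 were lower in GM-DC (15.4% of all genes) and Asl and Arg2 higher (20.9% of all genes). The median difference of the 7 genes was -0.15 before LPS and -1.18 with it, against -0.01 and 0.00 (0.00183) over all genes.

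In GM-MF LPS changed 5 of the 7 genes, against 17.4% of all genes: Nos2, Arg2, Odc1 and Sat1 rose (6.54% of all genes did) and Asl fell (10.8% did). In GM-DC 3 of 7 changed, against 9.72% of all genes: Gch1 and Arg2 rose (5.23% of all genes did) and Sat1 fell (4.49% did). The difference between the responses itself was called for 4 of 7, against 7.59% of all genes: the response was more positive in GM-DC for Gch1 (4.53% of all genes) and more negative for Nos2, Odc1 and Sat1 (3.06% of all genes). These 5 comparisons share their groups, so they are not independent of each other.

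**Figure D1:**
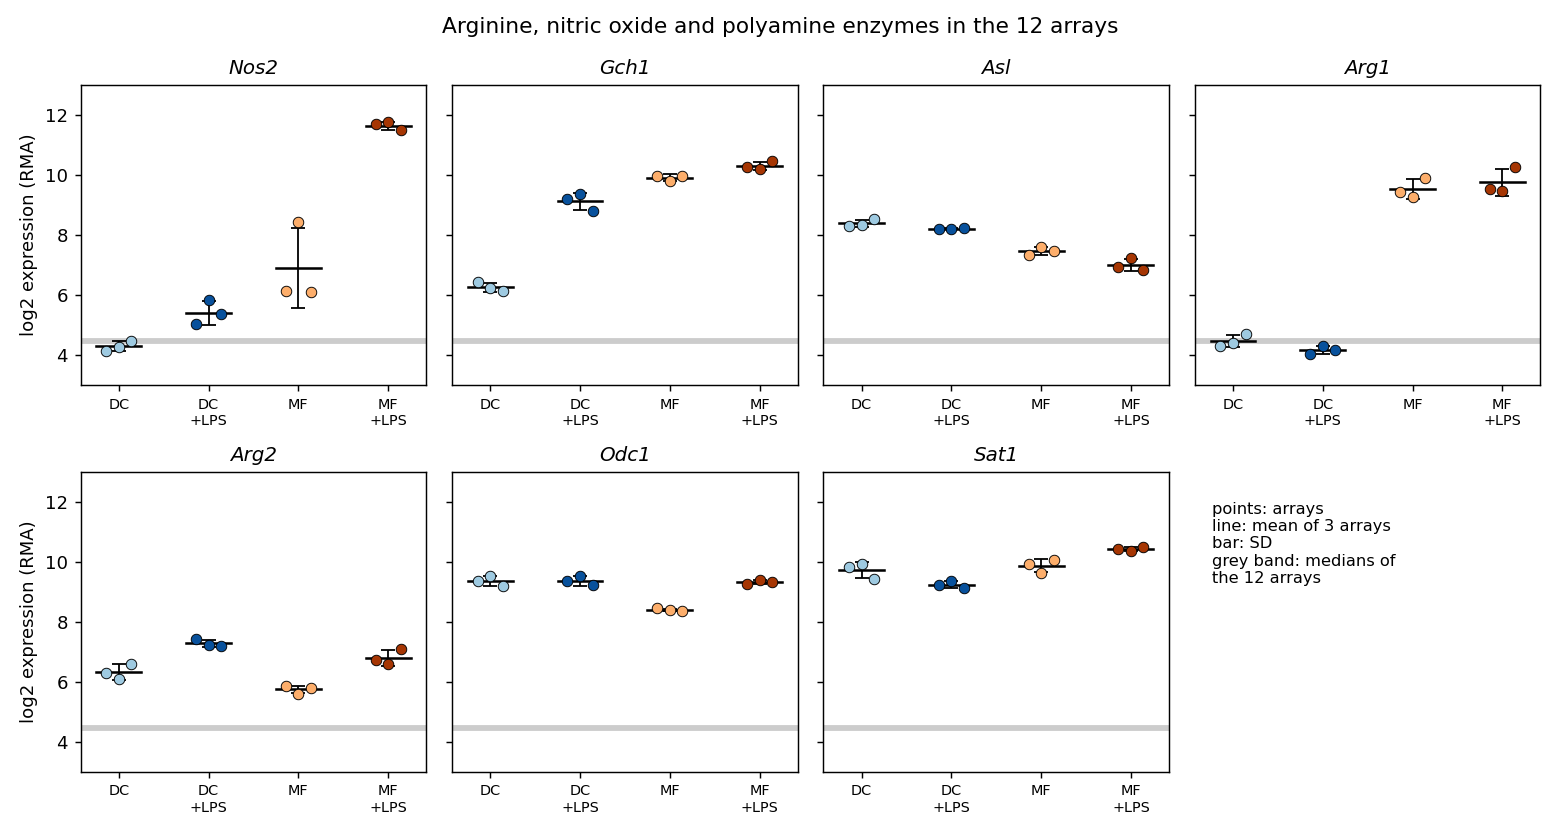
Log2 expression (vertical axis) of the 7 measured genes in each array (points), by group (horizontal axis: GM-DC and GM-MF, without and with LPS), with the mean (line), the SD over 3 arrays (bar) and the range of the array medians (grey band). Nos2 reaches 11.50 to 11.75 in GM-MF with LPS, and Arg1 in GM-DC lies around the grey band, 5 values under it and 1 above, and lies above 9 in all GM-MF arrays.

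Nos2 had the widest range of signal among the 7 genes. Its values were 4.13, 4.26 and 4.47 in unstimulated GM-DC, 5.02, 5.84 and 5.35 in GM-DC with LPS, 6.15, 8.43 and 6.11 in unstimulated GM-MF, and 11.68, 11.75 and 11.50 in GM-MF with LPS. No group overlapped its neighbour in this order. The means spanned 7.35 on the log2 scale, and 8 genes of the 19938, Nos2 included, spanned as much. This is a span of signals and may understate that of the RNA, because the lowest group was not shown to be above background. In GM-MF LPS raised Nos2 26.8-fold (4.75 ± 0.44, adjusted p = 2.66e-06), the change ranked 5 from the top among all genes. With LPS, GM-DC held 75.5-fold less than GM-MF (-6.24 ± 0.44, adjusted p = 1.69e-08). Before LPS GM-DC held 6.10-fold less (-2.61 ± 0.44, adjusted p = 0.000187), the GM-DC values being at or under the array medians.

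The call for Nos2 in GM-DC changed with 1 array of the other cell type. The values with LPS lay above all values without it, at a mean of 5.40 ± 0.41 against 4.29 ± 0.17, but the difference of 1.12 ± 0.44 was not called (adjusted p = 0.153, 95% interval 0.18 to 2.05). The fit shares 1 spread across the 4 groups, and for Nos2 that spread was widest in unstimulated GM-MF (SD 1.33), where replicate 2 stood 2.28 above the higher of the other arrays. Without that array the same difference was called (adjusted p = 0.000712), as it was in a fit on only the 6 GM-DC arrays (adjusted p = 0.0078), with the replicate number as a block in those 6 arrays (adjusted p = 0.00333), but not with the block over all 12 arrays (adjusted p = 0.0821). Over all 21 alternatives its adjusted p ran from 0.000712 to 0.416. Without that array the Nos2 response of GM-MF was 5.51, the difference between responses -4.40 in place of -3.63 ± 0.62 (adjusted p = 0.00164), and the difference between unstimulated GM-DC and GM-MF -1.84 in place of -2.61. Unstimulated GM-DC was not shown to be above background, so its response may be understated and the difference between responses overstated.

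By a cut of 1, that unstimulated GM-MF array differed from both others of its group in few genes. In it 17 genes lay over 1 above both other arrays of the group and 6 over 1 below. GM-DC unstimulated replicate 3 had as many above, with 9 below. The remaining arrays of the study had 0 to 5 above and 0 to 26 below. Over all genes the unstimulated GM-MF array correlated at 0.9926 with replicate 1, the lowest value within any group, and at 0.9933 with replicate 3. Replicates 1 and 3 correlated at 0.9962. The 17 genes, named here after their values were seen, included Egln3 (9.50 against 6.99 in replicate 1), a prolyl hydroxylase, Ankrd37 (9.74 against 7.66), the glucose transporter Slc2a1 (11.34 against 10.21), the lactate transporter Slc16a3 (9.36 against 8.22), the glycolytic genes Hk2 (8.21 against 7.09) and Pfkfb3 (8.98 against 7.90), and Ddit4 (6.00 against 4.82), an inhibitor of mTOR signalling. The cytokine Il6 (6.88 against 5.57) and the peptide gene Edn1 (6.27 against 5.09) were also among them, as were Nos2 itself, Krtap10-10, Ciart, Fscn1, Ctrb1, Ier3, Pbp2 and Slc1a6. Of the 17, with Nos2 counted, LPS in GM-MF raised 5, lowered 1 and left 11 not called. The array that picked the 17 is also in the unstimulated group of this test, so the rule shapes these calls. They cannot be set against the share of all genes that rose (6.54%). The part of the genes so picked in the Nos2 value of that array was not tested.

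**Figure D2:**
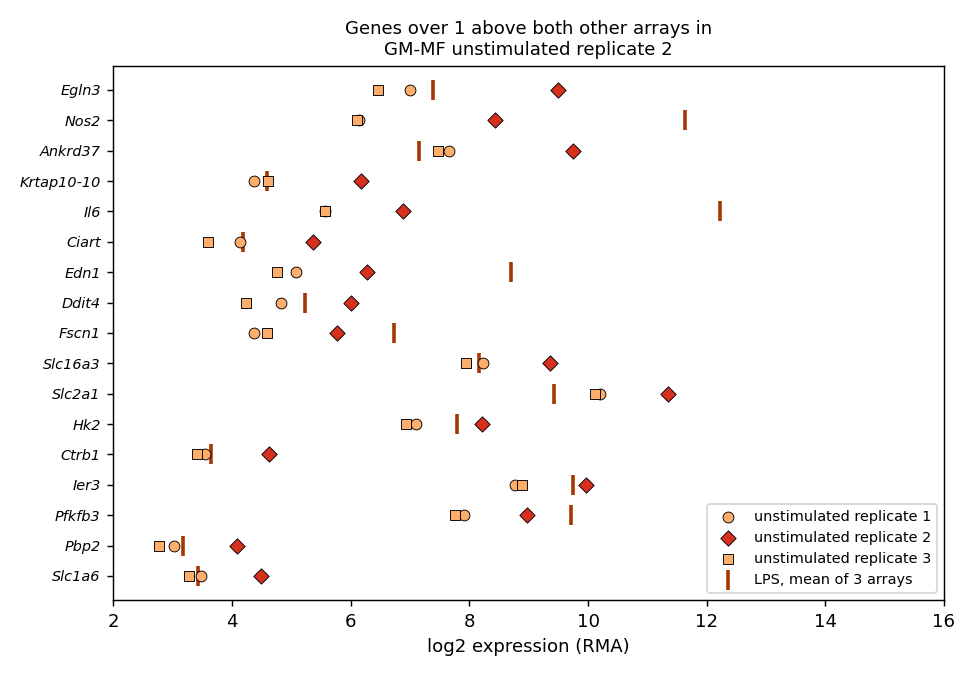
Log2 expression (horizontal axis) of the 17 genes (vertical axis) that lay over 1 above both other arrays in GM-MF unstimulated replicate 2 (red diamonds), with replicates 1 and 3 (orange circles and squares) and the mean of GM-MF with LPS (vertical strokes). Nos2 in replicate 2, at 8.43, lies between the other unstimulated arrays and the LPS mean of 11.64.

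Gch1, which makes the first intermediate of the cofactor of Nos2, had the largest LPS response of the 7 genes in GM-DC. It stood at 6.42, 6.23 and 6.13 in unstimulated GM-DC and at 9.20, 9.37 and 8.80 with LPS, a rise of 7.27-fold (2.86 ± 0.14, adjusted p = 5.60e-09) that ranked 41 among all genes. In GM-MF it was already at 9.98, 9.79 and 9.97 before LPS and at 10.26, 10.18 and 10.46 after. These groups did not overlap, but the rise of 0.39 ± 0.14 was not called (adjusted p = 0.0755). It was called under 7 of 21 alternatives, with adjusted p from 0.0188 to 0.252 over them. These included a fit on only the 6 GM-MF arrays (0.0436), the same with the replicate block (0.0319), and the fit without GM-DC LPS replicate 3 (0.0289). The response of GM-DC exceeded that of GM-MF by 2.47 ± 0.20 (adjusted p = 2.35e-06). GM-DC held 12.6-fold less Gch1 than GM-MF before LPS (-3.65 ± 0.14, adjusted p = 2.08e-11) and 2.26-fold less with it (-1.18 ± 0.14, adjusted p = 5.67e-06). Every array of stimulated GM-DC lay under every array of unstimulated GM-MF.

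The promoters of Gch1 and Odc1 are shown because the LPS responses of these genes differed between the cell types in opposite directions. They are RefSeq sequences of build GRCm38.p6, 5′ to 3′ on the strand of the gene, from 250 bases before to 50 after the start. Gch1 lies on chromosome 14, minus strand (chr14:47189364-47189663), and Odc1 on chromosome 12, plus strand (chr12:17544623-17544922). Capitals mark matches, on either strand, to the letters of NF-kB sites (GGG, any 5 bases, CC), interferon response elements (GAAA, any 2 bases, GAAA), STAT sites (TTC, any 3 bases, GAA) and C/EBP sites (TT, any 2 bases, GCAA), the E-box CACGTG and TATAAA.
Gch1: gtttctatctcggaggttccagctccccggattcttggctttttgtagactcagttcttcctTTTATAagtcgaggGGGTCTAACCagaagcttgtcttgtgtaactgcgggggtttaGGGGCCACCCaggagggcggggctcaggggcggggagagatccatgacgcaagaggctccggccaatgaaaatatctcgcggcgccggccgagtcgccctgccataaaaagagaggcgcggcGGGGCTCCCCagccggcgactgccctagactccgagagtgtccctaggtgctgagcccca
Odc1: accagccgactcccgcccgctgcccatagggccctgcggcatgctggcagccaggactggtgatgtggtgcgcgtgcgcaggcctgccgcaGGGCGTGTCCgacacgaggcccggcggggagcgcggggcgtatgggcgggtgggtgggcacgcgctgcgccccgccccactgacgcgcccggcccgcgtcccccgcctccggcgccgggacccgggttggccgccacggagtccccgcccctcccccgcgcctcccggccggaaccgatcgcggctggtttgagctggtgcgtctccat
The NF-kB letters matched at 3 places in the Gch1 window, starting at bases -174, -132 and -10 counted from the start (the last 2 on both strands), and at 1 place in that of Odc1, at -159. TATAAA matched on the opposite strand of Gch1 at -188. The NF-kB letters are common, occurring in 50.8% of 32851 promoters of the same length, against 3.44% for the interferon element, 8.30% for STAT, 10.8% for C/EBP, 7.15% for the E-box and 13.6% for TATAAA. These shares were not adjusted for base content. G and C made up 60.3% of the Gch1 window and 78% of the Odc1 window, against a median of 52.7% over these promoters. The Sat1 window held no match to any of these letters, while that of Ass1 held 7, to the NF-kB letters and the E-box. A match is a description of the letters and not a binding site. The table held promoters of 4 of the 8 genes, Ass1, Gch1, Odc1 and Sat1.

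Asl, which returns citrulline to arginine, was higher in GM-DC with and without LPS. It was at 8.31, 8.32 and 8.52 in unstimulated GM-DC and at 8.22, 8.19 and 8.23 with LPS, and at 7.35, 7.61 and 7.46 in unstimulated GM-MF and 6.92, 7.22 and 6.83 with LPS. No neighbours in this order overlapped. GM-DC held 1.88-fold more before LPS (0.91 ± 0.12, adjusted p = 1.36e-05) and 2.33-fold more with it (1.22 ± 0.12, adjusted p = 5.67e-07). In GM-MF LPS lowered Asl (-0.48 ± 0.12, adjusted p = 0.00879), a call that ended after cyclic loess normalization (-0.37, adjusted p = 0.0510) and without GM-MF LPS replicate 3 (-0.40, adjusted p = 0.0510). The GM-DC difference of -0.17 ± 0.12 was not called (adjusted p = 0.505). The 2 responses differed by 0.31 ± 0.17, which was not called (adjusted p = 0.36, 95% interval -0.04 to 0.66).

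Arg1 separated the cell types and was not called as responding to LPS in either. It was at 4.31, 4.40 and 4.69 in unstimulated GM-DC, 4.02, 4.31 and 4.17 in GM-DC with LPS, 9.42, 9.27 and 9.91 in unstimulated GM-MF, and 9.55, 9.46 and 10.26 in GM-MF with LPS. The GM-DC values lay around the array medians, the highest at 4.69. GM-DC held 33.5-fold less before LPS (-5.07 ± 0.20, adjusted p = 3.35e-11) and 48.1-fold less with it (-5.59 ± 0.20, adjusted p = 1.41e-11), the latter ranked 18 from the bottom among all genes. In both ratios the GM-DC signal was not shown to exceed background. After LPS the difference was 0.22 ± 0.20 in GM-MF (adjusted p = 0.573, 95% interval -0.21 to 0.65), with overlapping groups, and -0.30 ± 0.20 in GM-DC (adjusted p = 0.498, 95% interval -0.74 to 0.13). Each GM-MF array with LPS was above the unstimulated array of the same number, and the difference was -0.03 when GM-MF LPS replicate 3 was left out and its unstimulated counterpart kept. In GM-MF Nos2 thus rose while Arg1 stayed above 9 in all 6 arrays.

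Arg2, the mitochondrial arginase, rose with LPS in both cell types. It went from 6.28, 6.09 and 6.59 to 7.41, 7.23 and 7.20 in GM-DC (1.94-fold, 0.96 ± 0.15, adjusted p = 0.000582) and from 5.84, 5.60 and 5.79 to 6.73, 6.58 and 7.10 in GM-MF (2.08-fold, 1.06 ± 0.15, adjusted p = 0.000135). The responses differed by -0.10 ± 0.21 (adjusted p = 0.897, 95% interval -0.55 to 0.35). Opposite to Arg1, it was higher in GM-DC, by 0.58 ± 0.15 before LPS (adjusted p = 0.00609) and 0.48 ± 0.15 with it (adjusted p = 0.0188). The latter call ended after cyclic loess (0.31, adjusted p = 0.130) and without GM-DC LPS replicate 1 (adjusted p = 0.0766), GM-MF LPS replicate 1 (0.0644) or GM-MF LPS replicate 2 (0.0969). Unstimulated GM-DC and GM-MF with LPS were neighbours in level and overlapped.

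**Figure D3:**
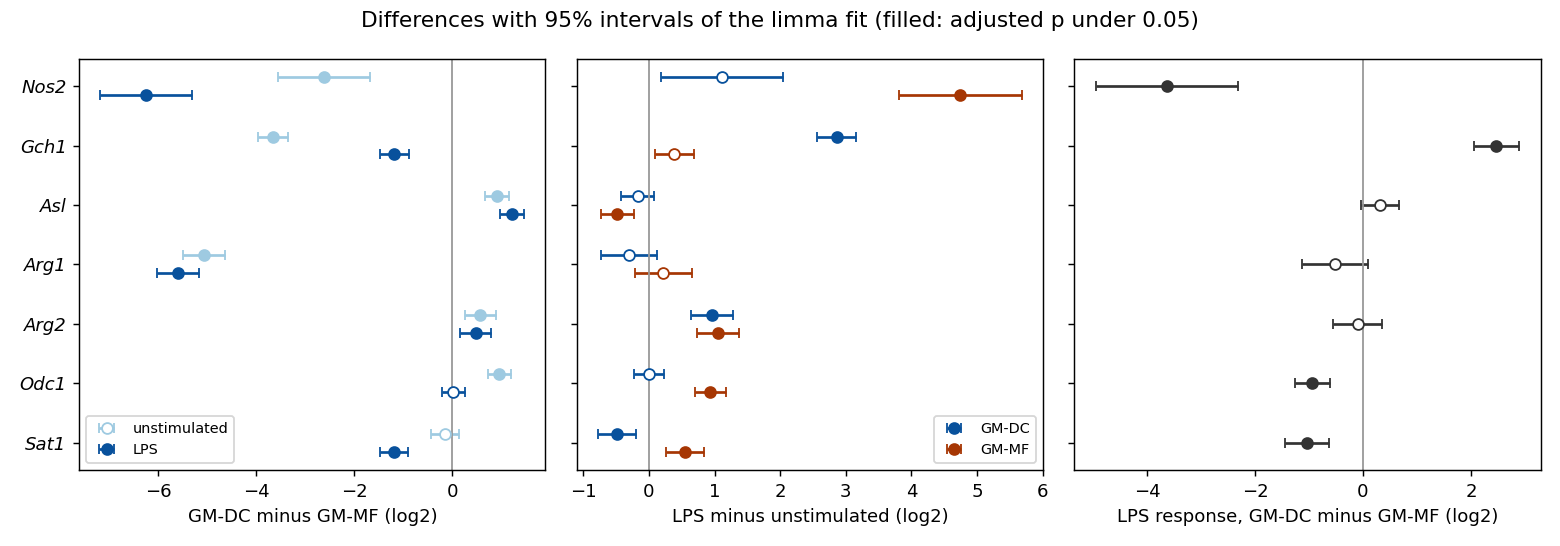
Log2 differences (horizontal axes) of the 7 genes with 95% intervals of the limma fit: GM-DC minus GM-MF without and with LPS (left), LPS minus unstimulated in each cell type (middle), and the response of GM-DC minus that of GM-MF (right). Filled points have an adjusted p under 0.05, and of the 4 filled points on the right Gch1 lies above 0 (2.47) and Nos2, Odc1 and Sat1 below it.

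Odc1, the entry enzyme of polyamine synthesis, rose with LPS in GM-MF, to values that overlapped those of GM-DC. It was at 8.44, 8.39 and 8.36 in unstimulated GM-MF and at 9.27, 9.40 and 9.33 with LPS, a rise of 1.91-fold (0.94 ± 0.11, adjusted p = 2.21e-05). GM-DC had 9.37, 9.51 and 9.20 without LPS and 9.36, 9.52 and 9.21 with it, a difference of 0.00 (-0.000519) ± 0.11 (adjusted p = 0.999, 95% interval -0.23 to 0.23). The responses differed by -0.94 ± 0.15 (adjusted p = 0.00115). Before LPS GM-DC held 1.95-fold more (0.96 ± 0.11, adjusted p = 3.23e-06), and with LPS the groups overlapped (0.02 ± 0.11, adjusted p = 0.900, 95% interval -0.21 to 0.26). Odc1 has 2 probe sets with the same accessions in the annotation, and whether either also reads a copy of the gene elsewhere in the genome was not tested. The other gave the same calls with larger differences: a rise of 1.28 in GM-MF (adjusted p = 1.04e-06), 1.29 more in GM-DC before LPS (adjusted p = 1.14e-07) and -1.24 between responses (adjusted p = 0.000103).

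Sat1, the polyamine acetyltransferase, moved in opposite directions. In GM-MF it rose from 9.93, 9.64 and 10.05 to 10.42, 10.37 and 10.48 (0.55 ± 0.14, adjusted p = 0.0100). In GM-DC it fell from 9.81, 9.92 and 9.44 to 9.24, 9.36 and 9.12 (-0.49 ± 0.14, adjusted p = 0.0346). Neither pair of groups overlapped. The call of the fall in GM-DC ended in a fit on only the GM-DC arrays (adjusted p = 0.0710) and without any 1 of GM-DC unstimulated replicates 1 (0.132) and 2 (0.165) and GM-DC LPS replicates 1 (0.0912), 2 (0.0506) and 3 (0.108). The difference between responses, -1.04 ± 0.19 (adjusted p = 0.00304), kept its call in all 19 alternatives tried. The unstimulated cell types overlapped (-0.15 ± 0.14, adjusted p = 0.475, 95% interval -0.44 to 0.14), and with LPS GM-DC held 2.27-fold less (-1.19 ± 0.14, adjusted p = 3.84e-06).

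Other genes of these pathways were taken from 4 lists, of which 56 genes were measured. Of 11 genes of arginine and cationic amino acid transport, 4 were higher and 2 lower in GM-DC before LPS (34.2% of all genes were called), and 5 higher and 2 lower with it (36.3%), the median difference being 0.10 and 0.03. The lower ones included Slc7a2, the inducible cationic amino acid transporter that brings arginine into macrophages, at 5.78 ± 0.12 (SD) in GM-DC and 10.53 ± 0.22 in GM-MF before LPS (-4.74 ± 0.14, adjusted p = 2.47e-12). LPS raised Slc7a2 in both cell types, by 1.13 ± 0.14 in GM-DC and 1.16 ± 0.14 in GM-MF. Slc3a2, the heavy chain shared by several amino acid transporters, was also lower in GM-DC (-1.11 ± 0.10 before LPS, -1.49 ± 0.10 with it). The y+L transporter chains Slc7a7 (1.42 ± 0.12 before and 1.85 ± 0.12 with LPS) and Slc7a6 (1.27 ± 0.18 and 3.43 ± 0.18) were higher in GM-DC, as was the mitochondrial carrier Slc25a29 before LPS (1.66 ± 0.16). LPS raised 2 and lowered 1 of the 11 in GM-DC (9.72% of all genes were called) and raised 1 and lowered 3 in GM-MF (17.4%). Slc7a6 rose in GM-DC (1.64 ± 0.18, adjusted p = 2.30e-05) and its response there exceeded that in GM-MF by 2.16 ± 0.25 (adjusted p = 7.25e-05), and Slc7a1, the constitutive transporter, fell in GM-MF (-0.60 ± 0.13), the responses differing by 0.64 ± 0.18 (adjusted p = 0.0443). Slc38a9, an arginine sensor of the lysosome, fell in both cell types (-0.72 ± 0.14 in GM-DC and -0.73 ± 0.14 in GM-MF).

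Of 16 genes of the synthase family, its cofactor and its control, 5 were higher and 3 lower in GM-DC before LPS (34.2% of all genes were called), and 5 higher and 4 lower with it (36.3%), with medians of -0.05 and -0.04. Nostrin, known as a trafficking factor of endothelial nitric oxide synthase, was higher in GM-DC (2.69 ± 0.13 before LPS, adjusted p = 2.83e-10, and 3.69 ± 0.13 with it), as was Ddah2, of a family that degrades methylated arginines (1.67 ± 0.18 before LPS). Nampt, an enzyme of NAD synthesis (-1.81 ± 0.10 before LPS), and Qdpr, which recycles tetrahydrobiopterin (-0.59 ± 0.12), were lower. The cofactor genes did not share a direction. Spr, the last enzyme of tetrahydrobiopterin synthesis, was higher in GM-DC, by 1.60 ± 0.10 before LPS and 1.84 ± 0.10 with it. LPS raised 1 and lowered 0 of the 16 in GM-DC (9.72% of all genes were called), where Nampt rose (0.54 ± 0.10). LPS raised 0 and lowered 2 in GM-MF (17.4% of all genes were called), where Nostrin (-0.99 ± 0.13) and Spr (-0.41 ± 0.10) fell. The responses differed for 2 of the 16 (7.59% of all genes were called), Nostrin (1.00 ± 0.19, adjusted p = 0.00321) and Nampt (0.63 ± 0.15, adjusted p = 0.0151).

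Of 13 arginine, ornithine, proline and urea cycle enzymes, 4 were higher and 2 lower in GM-DC before LPS (34.2% of all genes were called), and 2 higher and 2 lower with it (36.3%), with medians of -0.05 and 0.00 (-0.00381). Aldh18a1, which leads glutamate to proline and ornithine (0.97 ± 0.18 before LPS), and Oat, ornithine aminotransferase (0.68 ± 0.09), were higher in GM-DC, and Gamt, of creatine synthesis (-0.72 ± 0.14), and Cps1 of the urea cycle (-0.34 ± 0.10, at 3.17 and 3.51, under the array medians) lower. With LPS Aldh18a1 (0.89 ± 0.18) and Pycrl, a pyrroline carboxylate reductase (0.49 ± 0.13), were higher, and Gamt (-0.72 ± 0.14) and Padi4, which makes citrulline in proteins (-0.29 ± 0.11, also under the array medians), lower. LPS raised 1 of them in GM-MF, Oat (0.36 ± 0.09, adjusted p = 0.0137, with 17.4% of all genes called). In GM-DC 0 of 13 were called by limma (9.72% of all genes were), and Oat differed by -0.13 ± 0.09. An unadjusted p under 0.05 was found there for 2 of the 13, and for 3884 of all 19938 genes. Of the 13, only Oat had a called difference between responses (-0.49 ± 0.13, adjusted p = 0.0352), with 7.59% of all genes called.

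Of 16 polyamine genes beyond Odc1 and Sat1, 2 were higher and 6 lower in GM-DC before LPS (34.2% of all genes were called) and 1 higher and 6 lower with it (36.3%), with medians of -0.16 and -0.23. The lower ones were led by Cav1, the caveolae protein caveolin-1 (-4.20 ± 0.17 before LPS, adjusted p = 2.92e-11), and Atp13a2, a lysosomal polyamine exporter (-2.19 ± 0.11, adjusted p = 3.34e-10). Azin2, a member of the antizyme inhibitor family (0.35 ± 0.12), and Mat2b, a subunit of the enzyme that makes S-adenosylmethionine (0.30 ± 0.10), were higher. LPS raised 2 and lowered 1 in GM-DC (9.72% of all genes were called), where Cav1 (1.81 ± 0.17) and Azin1, an antizyme inhibitor that protects ornithine decarboxylase (0.74 ± 0.14), rose and Atp13a2 fell (-0.47 ± 0.11). In GM-MF 2 rose and 2 fell (17.4% of all genes were called): Smox, spermine oxidase (0.75 ± 0.21), and Cav1 (0.62 ± 0.17) rose, and Atp13a2 (-1.10 ± 0.11) and Srm, spermidine synthase (-0.69 ± 0.15), fell. The responses differed for 3 of the 16 (7.59% of all genes were called), among them Cav1 (1.19 ± 0.23, adjusted p = 0.00478) and Srm (0.76 ± 0.21, adjusted p = 0.0399).

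**Figure D4:**
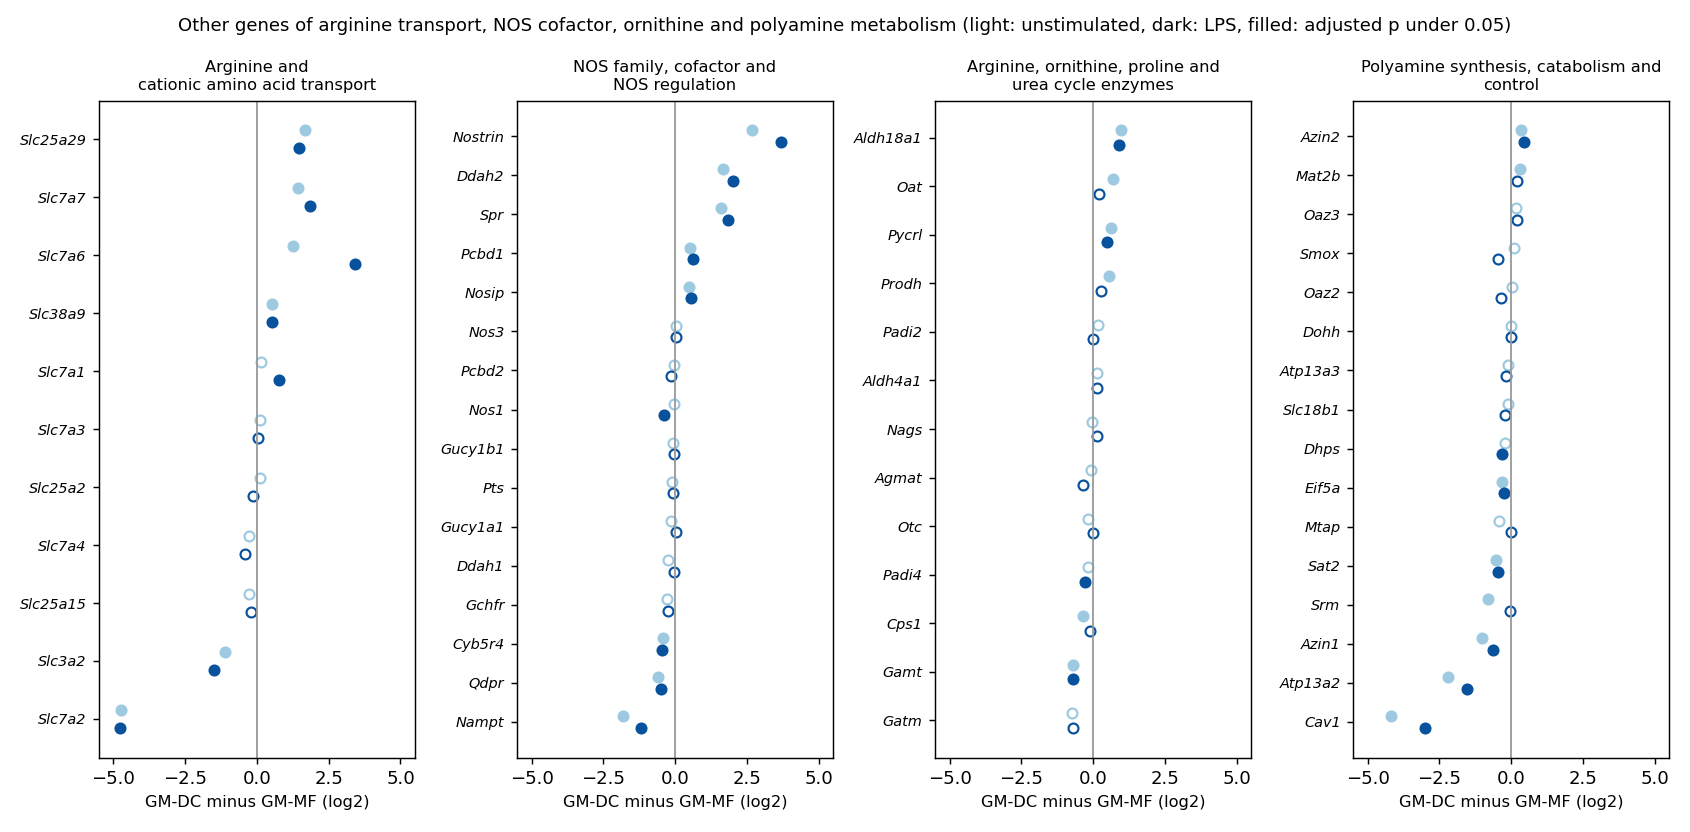
Log2 difference GM-DC minus GM-MF (horizontal axes) for the 56 measured genes of the 4 lists (vertical axes), without LPS (light) and with LPS (dark), filled where the adjusted p is under 0.05. Slc7a2, at -4.74 and -4.77, lies furthest toward GM-MF, and Nostrin, at 2.69 and 3.69, furthest toward GM-DC.

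The genes whose profile over the 12 arrays was nearest to that of Nos2, Arg1 and Gch1, the members whose group means spanned at least 2, were found by the root mean square difference of log2 values centred on each gene's own mean. For Nos2 they were U90926 (0.750), Fst (0.919) and Iigp1 (0.940), against a median of 2.86 over all genes. In GM-MF unstimulated replicate 2, where Nos2 was high, these were at 5.68, 6.68 and 6.55, close to their group means of 5.57, 6.64 and 6.49. For Arg1 they were Clmp (0.238), Pf4 (0.244) and Clec4a1 (0.268), against a median of 2.68. For Gch1 they were Parp12 (0.221), Parp14 (0.223) and Pml (0.233), against a median of 1.59.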

How the data were processed

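The deposited table held log2 values of 35556 probe sets. RMA and R 3.0.2 are named in the submitters' processing notes. Base 2 was inferred from the range, 1.18 to 13.7, and RMA settings are not given in the sources used here. Probe sets with 1 symbol in the platform annotation (21789, against 1621 with several and 12146 with none) were kept, 1 per gene by the highest mean over the 12 arrays, with no filter. Differences were tested with limma 3.58.1 in R 4.3.3 (4 group means, 12 arrays, 8 residual degrees of freedom, eBayes without trend, two-sided, Benjamini-Hochberg over 19938 genes). With 3 arrays per group, their number limits the precision.

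The 8 genes, the lists and the alternatives were chosen with earlier results of these data known. Per list and comparison, up to 2 called genes per direction with the largest difference are named, or, where none was called, the gene with the highest mean. For some genes so named, values of other comparisons are given as well. Alternatives were median centring, cyclic loess, 2 filters, averaged probe sets, eBayes with trend and robust, fits on only the arrays compared, a replicate block, and leaving out each array. After the data were seen, a block within the 6 arrays of a cell type and the other Odc1 probe set were added.

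Replicate numbers repeat across groups. After centring on group means, arrays of the same number correlated at 0.119 to 0.363 between the GM-DC groups and at 0.104 to 0.257 between the GM-MF groups. Arrays of unlike number correlated at -0.250 to 0.164 and at -0.216 to 0.0254, so the ranges overlapped in GM-DC and not in GM-MF. Between cell types, arrays of the same number correlated at -0.168 to 0.0117 (unstimulated) and -0.00470 to 0.156 (LPS). Numbers were read as a possible pairing only within a cell type, and the main fit used no block. The labels do not state such a pairing.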

Additional observations from a re-analysis of the deposited data

Results flagged for a closer look

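The response to LPS differed between GM-DC and GM-MF, by the interaction term of the limma fit, for 4 of the 7 genes. Gch1 responded more in GM-DC, by 2.47 ± 0.198 (adjusted p = 2.35e-06). Nos2 responded less in GM-DC, with a difference of -3.63 ± 0.618 (adjusted p = 0.00164). Its signal in unstimulated GM-DC was at or under the array medians, so the size of this difference may be overstated. Without GM-MF unstimulated replicate 2 the difference was larger, at -4.40. Odc1, at -0.94 ± 0.153 (adjusted p = 0.00115), was called as rising in GM-MF and not in GM-DC. Sat1, at -1.04 ± 0.192 (adjusted p = 0.00304), rose in GM-MF and fell in GM-DC, the fall being called in 15 of 21 alternatives. Groups of 3 arrays are too small for the test of single outlying samples used here.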

How the results depend on the processing

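Of 712 values of the 7 genes recomputed under the alternatives, 677 kept their direction and their side of the threshold, 12 lost their call, 10 gained one and 13 changed sign. The filters, eBayes with trend and leaving out an array of a group not compared can change a p-value but not a difference. Part of the 677 thus kept their direction by construction. All sign changes were of differences that were not called. For Odc1 between the cell types with LPS they were -0.029 with median centring and -0.082 with cyclic loess, and -0.053 to 0.10 when each array was left out. For Odc1 between GM-DC with and without LPS they were 0.021 with probe sets averaged and 0.043 with the other probe set, and -0.080 to 0.075 when each array was left out. Leaving out each array gave -0.033 to 0.41 for the Arg1 response to LPS in GM-MF and -0.21 to 0.052 for the Arg2 difference between responses. The replicate block over all 12 arrays left the number of called genes among the 7 at 6, 6, 3, 5 and 4 in the 5 comparisons. Within the 6 arrays of a cell type it changed the calls of Nos2 in GM-DC (adjusted p = 0.00333) and Gch1 in GM-MF (adjusted p = 0.0319) and no other call for LPS. Counts of calls over all genes stayed within 1.5 times the reported ones, from 1331 to 2246 against 1938 for LPS in GM-DC. Median centring and cyclic loess moved the median of all genes by at most 0.05 (-0.0538). With 3 arrays per group, and no background call for any probe set, small differences and levels near the array medians are the least certain.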
